A study of Mus musculus with 2 samples.

Results

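Heat shock proteins and their co-chaperones were measured in the hearts of male mice of strain B6CASTF1/J, a first-generation hybrid, at 2 months of age. The set was chosen by gene symbol: the HSP70 genes (Hspa), the small heat shock proteins (Hspb and Cryab), Hsp90, Hsph1, Hspd1, Hspe1, the J-domain genes (Dnaja, Dnajb and Dnajc), Bag1 to Bag6, the CCT chaperonin subunits named Cct, and Unc45b, each with at least 1 transcript of type protein_coding. The rule gave 88 genes, of 22015 nuclear protein-coding genes and 55536 genes in the gene table. The rule reads symbols and transcript types and no measured value.

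The study holds 2 libraries of total RNA, depleted of ribosomal RNA, 1 per heart and each from 300 ng of RNA, and both belong to 1 group with no treatment named. The labels number them biological replicates 1 and 2, and give both the same donor entry but separate tissue entries, so that calling them 2 mice is a reading of the labels. Ratios below are replicate 1 over replicate 2, errors are the SD over the 2 hearts (n = 2), and no condition was contrasted with another. The gene tables held 38963568.95 expected counts in replicate 1 and 44321171.84 in replicate 2, of which 355086.01 and 408758.39 fell on the 88 genes. All 7 heart muscle markers examined (Myh6, Myl2, Tnni3, Tnnt2, Actc1, Ryr2 and Nppa) were detected in both hearts, from 390.27 TPM upwards in replicate 1 and from 391.03 TPM upwards in replicate 2, where TPM is the authors' length-corrected share of all transcripts. The 4 testis markers were at 0 in both hearts, and the 4 skeletal muscle markers were below 1 TPM in both. Tissue was taken whole, so fewer cells of a type and less RNA per cell cannot be told apart in any value below.

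Chaperones hold unfolded proteins in a state that can still fold. HSP70 proteins bind short hydrophobic stretches in a cycle driven by ATP, in which J-domain proteins deliver the client and start hydrolysis, while BAG and HSP110 proteins release the nucleotide. HSP90 acts later, on nearly folded clients such as kinases and hormone receptors; small heat shock proteins hold clients without ATP; and the ring-shaped chaperonins enclose them, HSP60 with its lid HSP10 in mitochondria and CCT in the cytosol. Heart muscle is known for abundant small heat shock proteins at the sarcomere, and mutations of CRYAB and BAG3 cause cardiomyopathy in humans. Many of these genes are known targets of heat shock factor, which binds inverted repeats of the unit NGAAN, whereas genes of the endoplasmic reticulum (ER) chaperones are known for an ER stress element.

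Promoter windows were searched for both elements, and the levels below refer back to them. RefSeq windows of 300 bases (GRCm38.p6, 250 bases before to 50 after each start) were matched by symbol for 71 of the 88 genes. Cryab, Hspb2, Hspa8, Hspa9, Hspa13, Hsp90aa1, Hsp90ab1, Cct4, Bag4, Dnajc2, Dnajc5, Dnajc5b, Dnajc11, Dnajc12, Dnajc18, Dnajc22 and Dnajc30 were the 17 without an entry. A heat shock element of 3 units, GAA and TTC in turn with 2 bases of any kind between units, on either strand, was found for 4 genes (Dnajb6, Hspd1, Hspe1 and Hsph1), which is 5.63% of the 71, against 0.662% of the 27025 genes with a window. A pair of units, GAANNTTC or TTCNNGAA, which also lies inside every 3-unit match, was found for 20 genes (28.2%), against 17.0% of all genes. The ER stress element, CCAAT and CCACG with 9 bases of any kind between them, on either strand, was found for 3 genes (Dnajc3, Hsp90b1 and Hspa5), or 4.23%, against 0.137% of all genes, which is 37 genes in all. Genes that share sequence were counted separately: Hspd1 and Hspe1 hold the same 3-unit elements in overlapping windows. The windows of Hspa1a and Hspa1b, both among the 20, are nearly the same. A match is a run of letters and no measure of binding, and a window without one says only that these letters are not in it. The windows are of the reference sequence, and the alleles of these hybrid mice were not examined.

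The 6 windows shown are those of the stress-inducible Hspa1a, of Hspe1 and Hsph1 with 3-unit elements, of the small heat shock protein gene Hspb1 with 2-unit elements, and of the ER chaperone genes Hspa5 and Hsp90b1. They are written 5′ to 3′ on the strand of the gene, and capitals mark each match to a heat shock element in the first 4 and to the ER stress element in the last 2.
Hspa1a, chr17:34972107-34972406, minus strand: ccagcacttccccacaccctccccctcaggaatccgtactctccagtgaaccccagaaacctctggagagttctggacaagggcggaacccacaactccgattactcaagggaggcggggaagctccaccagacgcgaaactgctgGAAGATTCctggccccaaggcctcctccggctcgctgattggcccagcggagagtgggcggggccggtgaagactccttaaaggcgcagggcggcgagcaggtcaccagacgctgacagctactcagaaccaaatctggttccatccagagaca
Hspe1, chr1:55087898-55088197, plus strand: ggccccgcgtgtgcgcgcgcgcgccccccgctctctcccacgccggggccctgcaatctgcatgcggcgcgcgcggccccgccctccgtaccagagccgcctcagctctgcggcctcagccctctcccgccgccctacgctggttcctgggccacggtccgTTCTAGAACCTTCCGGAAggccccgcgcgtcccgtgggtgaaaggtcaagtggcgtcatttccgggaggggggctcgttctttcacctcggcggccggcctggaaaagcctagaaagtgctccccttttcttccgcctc
Hsph1, chr5:149636287-149636586, minus strand: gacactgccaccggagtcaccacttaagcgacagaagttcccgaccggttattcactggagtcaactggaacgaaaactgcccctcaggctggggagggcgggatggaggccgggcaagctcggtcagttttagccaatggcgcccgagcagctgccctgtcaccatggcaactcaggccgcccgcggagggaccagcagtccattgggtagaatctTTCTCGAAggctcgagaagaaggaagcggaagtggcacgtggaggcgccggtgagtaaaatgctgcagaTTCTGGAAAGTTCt
Hspb1, chr5:135887669-135887968, plus strand: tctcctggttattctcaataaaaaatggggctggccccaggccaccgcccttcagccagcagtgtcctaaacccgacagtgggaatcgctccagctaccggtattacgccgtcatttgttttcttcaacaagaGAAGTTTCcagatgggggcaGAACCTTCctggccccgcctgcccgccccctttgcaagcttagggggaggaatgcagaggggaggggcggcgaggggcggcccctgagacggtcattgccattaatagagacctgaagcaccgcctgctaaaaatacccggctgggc
Hspa5, chr2:34771840-34772139, plus strand: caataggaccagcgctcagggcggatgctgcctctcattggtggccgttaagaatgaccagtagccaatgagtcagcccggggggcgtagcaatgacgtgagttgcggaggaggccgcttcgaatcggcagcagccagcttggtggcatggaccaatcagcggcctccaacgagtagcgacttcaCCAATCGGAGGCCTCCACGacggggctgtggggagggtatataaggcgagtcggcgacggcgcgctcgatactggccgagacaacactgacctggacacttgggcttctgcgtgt
Hsp90b1, chr10:86705395-86705694, minus strand: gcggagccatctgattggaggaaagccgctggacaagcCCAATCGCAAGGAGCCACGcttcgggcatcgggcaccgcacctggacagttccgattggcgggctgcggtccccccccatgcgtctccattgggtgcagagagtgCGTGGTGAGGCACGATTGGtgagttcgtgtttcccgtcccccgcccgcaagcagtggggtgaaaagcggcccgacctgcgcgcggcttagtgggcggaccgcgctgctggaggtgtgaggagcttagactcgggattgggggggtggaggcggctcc

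In the Hspe1 window the matches join into 1 run, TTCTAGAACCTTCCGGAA, and Hsph1 holds both a 2-unit and a 3-unit match. Hsp90b1 holds the ER stress element in both orientations. The window of Hspa1b matched that of Hspa1a at 98.7% of 300 positions. The 4 differences, given as Hspa1a base, position from the 5′ end of the window and Hspa1b base, were C44T, T47C, T249G and C276T, and none lay in the marked element.

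The chaperone genes as a set were abundant in these hearts. At least 1 TPM in both hearts, the threshold for detection used here, was reached by 76 of the 88 genes (86.4%), against 49.8% of nuclear protein-coding genes. At least 10 TPM was reached by 54 genes (61.4%, against 21.9%) and at least 100 TPM by 15 genes (17.0%, against 2.44%). The median level was 18.1 ± 0.813 TPM over the 88 genes, against 1.08 TPM over all nuclear protein-coding genes. Among detected genes only, the medians were 24.9 ± 0.156 TPM for chaperones and 8.68 ± 0.205 TPM for nuclear protein-coding genes. Together the 88 genes held 1.66% of nuclear protein-coding TPM in both hearts while making up 0.400% of the genes. Cryab, Hspa8, Hspb7, Hsp90ab1 and Hspa5 alone held 49.7% ± 0.240 of the chaperone TPM.

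**Figure D1:**
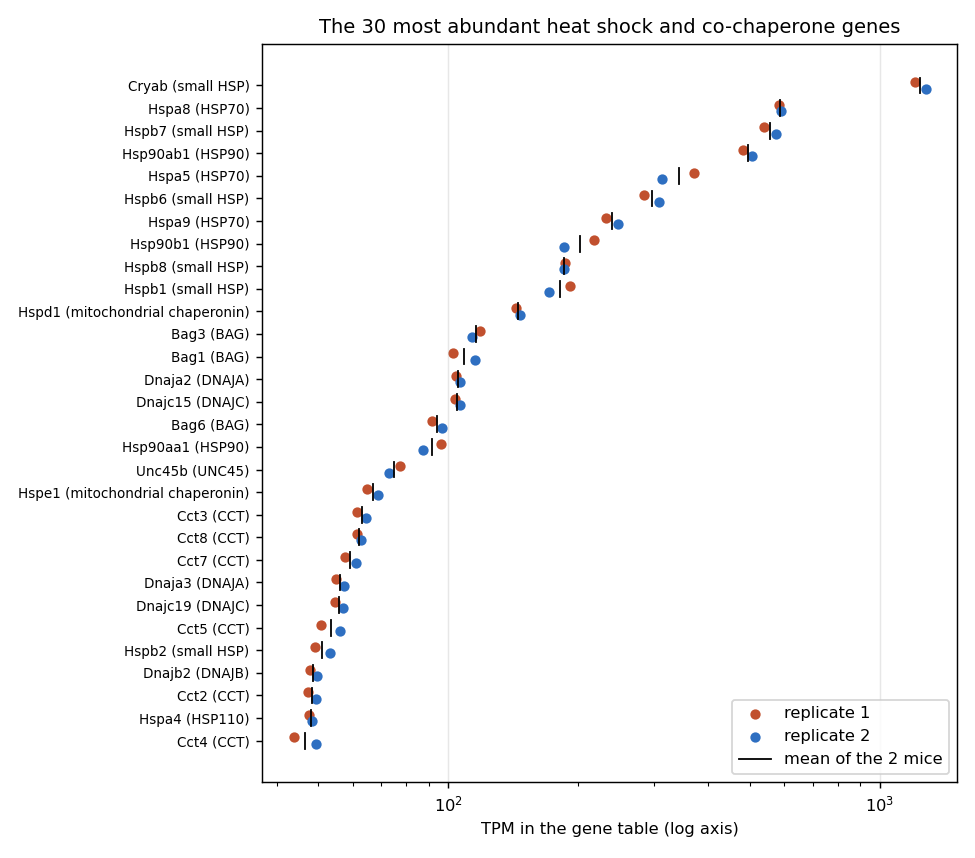
The 30 highest of the 88 genes by mean TPM (log axis), with replicate 1 above replicate 2 for each gene and a line at their mean. Cryab stands alone above the rest, and the widest ratios between the hearts among these 30 are at Hspa5 and Hsp90b1.

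Small heat shock proteins made up the largest class by level, with 38.9% ± 0.748 of the chaperone TPM from 9 genes. Cryab (chr9:50751325-50756636, plus strand, mm10), which encodes alpha-B-crystallin and binds desmin and titin, was at 1204.44 TPM in replicate 1 and 1279.63 TPM in replicate 2. It ranked 28 among all nuclear protein-coding genes and held 19.2% ± 0.563 of the chaperone TPM. Hspb7, a small heat shock protein of heart and skeletal muscle that binds filamin C, was at 538.31 and 573.95 TPM in replicates 1 and 2. Hspb6, known as HSP20 and phosphorylated by protein kinase A, was at 284.79 and 308.22 TPM. Each of these 3 genes was slightly lower in replicate 1, and none overlapped another small heat shock protein.

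Hspb8, which works with Bag3 in the removal of damaged muscle proteins, was at 186.19 TPM in replicate 1 and 185.06 TPM in replicate 2. Hspb1, known as HSP25 in mice, was at 192.02 TPM in replicate 1 and 170.91 TPM in replicate 2. The ranges of Hspb8 and Hspb1 overlapped, so the order of these genes is not settled by these hearts. Hspb2, a muscle-restricted small heat shock protein, averaged 51.1 ± 2.81 TPM, and its partner Hspb3 averaged 5.26 ± 0.283 TPM. Hspb11, which despite its name is a subunit of the intraflagellar transport machinery, averaged 3.61 ± 0.00707 TPM. Hspb9, a testis gene, was at 0.05 and 0.09 TPM in replicates 1 and 2, from 1 and 2 expected counts.

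Cryab and Hspb2 lie head to head on chromosome 9 with start sites 1029 bases apart, and their annotated gene bodies overlap by 1030 bases. The TPM of Cryab was 24.3 ± 0.295 times that of Hspb2, and the ratio differed little between replicate 1 (24.5) and replicate 2 (24.1). The sources used here do not state whether counting used strand, so reads from the overlap could have been assigned to either gene.

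The HSP70 class of 11 genes ran over more than 2 orders of magnitude and held 18.6% ± 0.627 of the chaperone TPM. Hspa8, the constitutive cytosolic HSP70 also called HSC70, was at 583.25 TPM in replicate 1 and 590.14 TPM in replicate 2. The ER member Hspa5 (BiP) was at 370.57 TPM in replicate 1 and 313.65 TPM in replicate 2, and the mitochondrial member Hspa9 (mortalin) at 231.85 and 247.96 TPM. These 3 genes, 1 for each compartment, stood apart from the rest of the class. The next, Hspa12b, a distant HSP70 relative known from endothelium, averaged 11.5 ± 0.212 TPM. Hspa14, which works at the ribosome, averaged 8.45 ± 0.276 TPM, Hspa12a 5.69 ± 0.0495 TPM and the ER-associated Hspa13 5.60 ± 0.311 TPM.

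The stress-inducible genes of the HSP70 class were near the detection threshold. Hspa1a was at 1.49 TPM in replicate 1 and 1.28 TPM in replicate 2, and Hspa1b at 0.95 and 1.12 TPM, so Hspa1b fell just short of 1 TPM in replicate 1. Hspa1l, a constitutive gene known from testis that starts 547 bases from Hspa1a on the opposite strand, was higher than either, at 4.51 and 4.16 TPM. Hspa2, the testis HSP70, was at 1.83 and 1.92 TPM. The sum of Hspa1a and Hspa1b was 2.44 TPM in replicate 1 and 2.40 TPM in replicate 2, so the pair moved less than either gene alone. Hspa8 stood 242 ± 4.85 times above that sum. The windows shown above for Hspa1a and described for Hspb1 both hold 2-unit heat shock elements, while the levels of these genes lay more than 100-fold apart.

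The HSP110 genes, nucleotide exchange factors related to HSP70, were of middling level. Hspa4 was at 47.58 TPM in replicate 1 and 48.45 TPM in replicate 2, and Hspa4l at 20.06 and 21.22 TPM. Hsph1, the heat-inducible HSP110 gene, was at 33.47 TPM in replicate 1 and 23.79 TPM in replicate 2, the widest ratio of TPM between the hearts of any chaperone gene at 10 TPM or more. In the first transcript table, described below, its retained-intron type Hsph1-208 was at 10.2 and 3.69 TPM in replicates 1 and 2. Its most abundant transcript there, the coding Hsph1-211, was at 10.75 and 9.91 TPM. Summed over its transcripts in the second transcript table, Hsph1 was at 45.7 and 39.4 TPM in replicates 1 and 2, a narrower ratio.

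Of the HSP90 genes, Hsp90ab1, the constitutive cytosolic form, was at 483.29 TPM in replicate 1 and 505.62 TPM in replicate 2. Hsp90b1, the ER form also called GRP94, was at 217.83 and 185.28 TPM. Hsp90aa1, the inducible cytosolic form, was at 96.27 and 87.36 TPM. The order Hsp90ab1, Hsp90b1, Hsp90aa1 held in both hearts with no overlap. Hsp90ab1 was 5.02 times Hsp90aa1 in replicate 1 and 5.79 times in replicate 2, a mean of 5.40 ± 0.543.

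**Figure D2:**
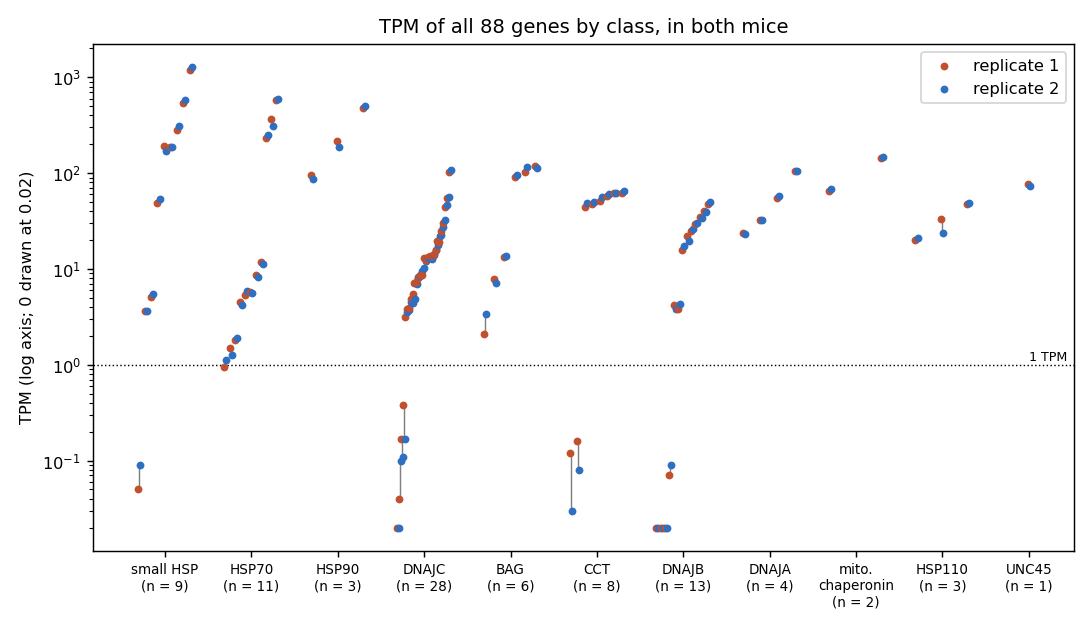
TPM (log axis, 0 drawn at 0.02) of all 88 genes in 11 classes, with replicate 1 drawn just left of replicate 2 and a line joining them. Small HSP, HSP70 and HSP90 genes reach the highest levels, CCT subunits other than Cct6b and Cct8l1 lie close together, and the genes under 1 TPM are mostly DNAJB and DNAJC genes.

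The genes listed here as ER chaperones, not held to be a complete set, numbered 10 of the 88, all detected. Beside Hspa5 and Hsp90b1 they were low: Dnajb11 (ERdj3), which delivers unfolded clients to BiP, was at 24.89 TPM in replicate 1 and 26.25 TPM in replicate 2. Dnajb9 (ERdj4), which acts in the degradation of misfolded ER proteins, was at 21.89 and 19.66 TPM. Dnajb12, an ER membrane J-domain protein, averaged 16.6 ± 1.08 TPM. Dnajc3 (P58IPK) averaged 13.2 ± 0.566 TPM and Dnajc10 (ERdj5), a disulfide reductase, 13.2 ± 0.233 TPM. Dnajc1 averaged 7.07 ± 0.0919 TPM and Dnajb14 4.06 ± 0.276 TPM. Hspa5 thus exceeded each of these ER J-domain genes by more than 10-fold in each heart.

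The genes listed here as mitochondrial chaperones, likewise not held to be a complete set, numbered 8 of the 88, all detected. Their median was 61.6 ± 2.30 TPM, against 15.0 ± 0.336 TPM for the listed ER genes. Hspd1 (HSP60) was at 143.44 TPM in replicate 1 and 146.90 TPM in replicate 2, and Hspe1 (HSP10) at 64.96 and 68.91 TPM. The genes lie head to head on chromosome 1 with start sites 111 bases apart, and their annotated gene bodies overlap by 112 bases on opposite strands, so the limit on strand given for Cryab and Hspb2 holds here too. The Hspe1 window shown above shares 285 bases with a RefSeq window of Hspd1, so both windows hold the same 3-unit elements. Hspe1 was 0.461 ± 0.0115 times Hspd1. Dnaja3, the J-domain partner of mortalin in the matrix, averaged 56.2 ± 1.80 TPM. Dnajc19, a component of the protein import motor whose loss causes cardiomyopathy in humans, averaged 55.9 ± 1.56 TPM. Dnajc11, a mitochondrial outer membrane protein linked to cristae, averaged 31.4 ± 1.28 TPM, and Dnajc30 averaged 16.7 ± 1.32 TPM.

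Dnajc15, a J-domain protein of the inner mitochondrial membrane known to restrain complex I, was the highest gene of the DNAJC class by TPM. It was at 103.54 TPM in replicate 1 and 106.54 TPM in replicate 2. Nearly all of its TPM lay on transcripts that the annotation does not type as protein_coding, which is described with the transcripts below. Without length correction its expected counts averaged 1980, fewer than those of Dnajc5 (2808.5), Dnajc13 (2415.5) and Dnajc3 (2196).

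The CCT chaperonin, which folds actin and tubulin, was expressed evenly. Of the 8 Cct genes that met the rule, 6 were detected, from Cct3 (63.0 ± 2.27 TPM) and Cct8 (62.1 ± 0.983 TPM) through Cct7 (59.3 ± 2.43 TPM), Cct5 (53.4 ± 3.77 TPM) and Cct2 (48.3 ± 1.61 TPM) to Cct4 (46.6 ± 3.86 TPM). In that order the ranges of Cct3 and Cct8 overlapped, as did those of Cct2 and Cct4, and those of the other neighbours did not. The second transcript table, described below, placed Cct8 highest (88.8 ± 0.858 TPM) and Cct3 lowest (50.2 ± 0.0674 TPM) of these 6 genes. Their order thus depends on the quantification. The remaining subunits of the ring carry symbols or types outside the rule: Tcp1, the alpha subunit, averaged 72.8 ± 3.19 TPM, and Cct6a, whose transcripts are all of other types than protein_coding in this annotation, 33.2 ± 0.686 TPM. Across the 8 subunits of the ring the highest was 2.20 ± 0.141 times the lowest. Cct6b, a testis form of a ring subunit, was at 0.16 TPM in replicate 1 and 0.08 TPM in replicate 2, and Cct8l1 at 0.12 and 0.03 TPM.

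The J-domain genes numbered 45, of which 37 were detected and 14 reached 20 TPM in both hearts. Dnaja2, a main cytosolic partner of HSC70, was at 104.27 TPM in replicate 1 and 106.47 TPM in replicate 2, and its relatives Dnaja4 and Dnaja1 averaged 32.6 ± 0.262 and 23.3 ± 0.368 TPM. Dnajb2, a co-chaperone that also binds ubiquitin, averaged 48.7 ± 1.33 TPM. Dnajb4 and Dnajb5, cytosolic relatives of the heat-inducible Dnajb1, averaged 39.5 ± 0.636 and 34.4 ± 0.742 TPM. Dnajb1 itself, the classical inducible HSP40, was at only 3.86 TPM in replicate 1 and 4.32 TPM in replicate 2. Dnajb6, a suppressor of aggregation whose mutations cause limb-girdle muscular dystrophy in humans, averaged 29.7 ± 0.559 TPM. In the DNAJC class, Dnajc7 (TPR2), which links HSP70 to HSP90, averaged 45.1 ± 1.85 TPM and Dnajc5, the cysteine string protein of vesicles, 26.1 ± 1.90 TPM.

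The least abundant genes had few or no counts. Dnajb13, Dnajb7, Dnajb8 and Dnajc5g had no count in either heart, where a floor of 3 counts corresponds to 0.0770 CPM in replicate 1 and 0.0677 in replicate 2. Under 0.1 TPM in both hearts stood also Hspb9 and Dnajb3. Dnajb3 was at 0.07 TPM in replicate 1 and 0.09 TPM in replicate 2, from 2 and 3 expected counts. Dnajc5b was at 0.04 and 0.10 TPM in replicates 1 and 2, from 1 and 3 expected counts.

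The BAG genes, whose products bind HSP70, were all detected. Bag3, which tethers HSP70 to small heat shock proteins at the Z-disc, was at 118.41 TPM in replicate 1 and 113.36 TPM in replicate 2. Bag1, an exchange factor that links HSP70 to the proteasome, was at 102.44 and 115.40 TPM. The ranges of Bag3 and Bag1 overlapped. Bag6, which guards membrane proteins on their way to the ER, was at 91.57 and 96.49 TPM. Bag2, an inhibitor of the CHIP ubiquitin ligase, averaged 13.4 ± 0.233 TPM, Bag5 averaged 7.54 ± 0.460 TPM and Bag4 2.73 ± 0.919 TPM.

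Unc45b, the myosin chaperone of striated muscle, was at 77.22 TPM in replicate 1 and 72.85 TPM in replicate 2. It stood 12.2 ± 0.250 times above Unc45a, its general counterpart.

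Of 42 related genes of the same pathways outside the rule, 41 were detected, with a median of 29.1 ± 1.12 TPM, and Hspbap1 (0.900 ± 0.113 TPM) was not. The 9 at 50 TPM or more in both hearts included 2 muscle genes. Smyd1, a methyltransferase that acts with Unc45b and HSP90 on myosin, was at 126.02 TPM in replicate 1 and 135.03 TPM in replicate 2. Flnc, a filamin bound by Hspb7 and turned over through Bag3, was at 82.30 and 85.01 TPM. The HSP90 co-chaperones Fkbp4, Cdc37 and Ahsa1 averaged 130.1 ± 6.34, 59.3 ± 4.01 and 58.4 ± 0.255 TPM. Pfdn5, a subunit of prefoldin, which hands actin and tubulin to CCT, was at 117.58 TPM in replicate 1 and 134.53 TPM in replicate 2. Trap1, the HSP90 of mitochondria, averaged 57.1 ± 2.49 TPM. The others were Tcp1, given above, and Hsbp1, a small binding protein of heat shock factor, at 57.9 ± 4.53 TPM. Of the factors that bind the heat shock element, Hsf1 averaged 15.8 ± 1.60 TPM, Hsf2 5.89 ± 0.134 TPM and Hsf4 1.17 ± 0.163 TPM.

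The hearts were then compared with each other by the ratio of scaled counts (TMM scaling, a prior count of 0.5), wherever the expected counts averaged 50 or more. This held for 77 of the 88 genes. The other 11 all had mean counts of 17.5 or fewer, and the lowest of the 77 had 60.0. With 2 samples of 1 group no test was possible, and the 95% intervals given are exact intervals of counting error only. None of the 77 genes was 2-fold apart, where 0.57% of all 12453 genes were, and none was 1.5-fold apart, against 2.08% of all genes. At 1.2-fold, 4 genes were apart, against 11.3% of all genes. All 4 were higher in replicate 1, where 6.65% of all genes were at least 1.2-fold higher, and none was in replicate 2, against 4.61% of all genes. The median log2 ratio was -0.015 over the 77 genes and -0.0053 over all genes, and the median size of the log2 ratio, whatever its sign, was 0.06 for the 77 genes and 0.08 for all genes. The interval excluded 0 for 22 of the 77, and for 19.6% of all genes. Such intervals narrow as counts rise, and the chaperone genes were more abundant than most, so these figures do not compare genes of like counts.

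Of the 4 genes above 1.2-fold, Hspa1a was near the detection threshold. Hsph1 was 1.34-fold higher in replicate 1, a log2 ratio of 0.42 with an interval of 0.34 to 0.51. Hsp90aa1 was 1.29-fold higher, with a log2 ratio of 0.37 (0.31 to 0.42), but its log2 ratio of TPM was only 0.14, and most of its sequence is shared with other genes, as given at the end. Hspa5 was 1.24-fold higher, with a log2 ratio of 0.31 (0.28 to 0.33). Hspa1a had a log2 ratio of 0.27, but from 132.73 counts in replicate 1 and 129.17 in replicate 2 its interval ran from -0.08 to 0.64. The fifth of the order, Hsp90b1, lay just below the threshold with a log2 ratio of 0.26 (0.23 to 0.29), followed by Hspb1 with 0.22 (0.16 to 0.28) and Dnajb9 with 0.21 (0.10 to 0.30).

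In the other direction the 5 lowest log2 ratios were those of Hspa1b (-0.19, interval -0.62 to 0.25), Bag4 (-0.17, -0.40 to 0.07), Dnajc9 (-0.15, -0.44 to 0.13), Dnajc8 (-0.12, -0.26 to 0.02) and Bag1 (-0.12, -0.18 to -0.06). Of these 5 only Bag1 had an interval that excluded 0. Taken from TPM instead, 2 of the 77 genes were 1.2-fold apart, Hsph1 (log2 ratio 0.49) and Bag4 (-0.70), against 18.3% of all genes, and Bag4 alone was 1.5-fold apart, against 3.46%. Bag4 was at 2.08 TPM in replicate 1 and 3.38 TPM in replicate 2. In the first of the transcript tables described below, its retained-intron type Bag4-203 was at 0.25 and 1.32 TPM. The coding Bag4-201 was at 1.78 and 1.98 TPM. In the second transcript table, Bag4 went the other way, at 2.65 TPM in replicate 1 and 2.30 TPM in replicate 2. The difference in TPM at Bag4 thus depends on the quantification, and that at Hsph1 was smaller in the second table, as given above. The median log2 ratio of TPM was -0.057 over the 77 genes and -0.058 over all genes.

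**Figure D3:**
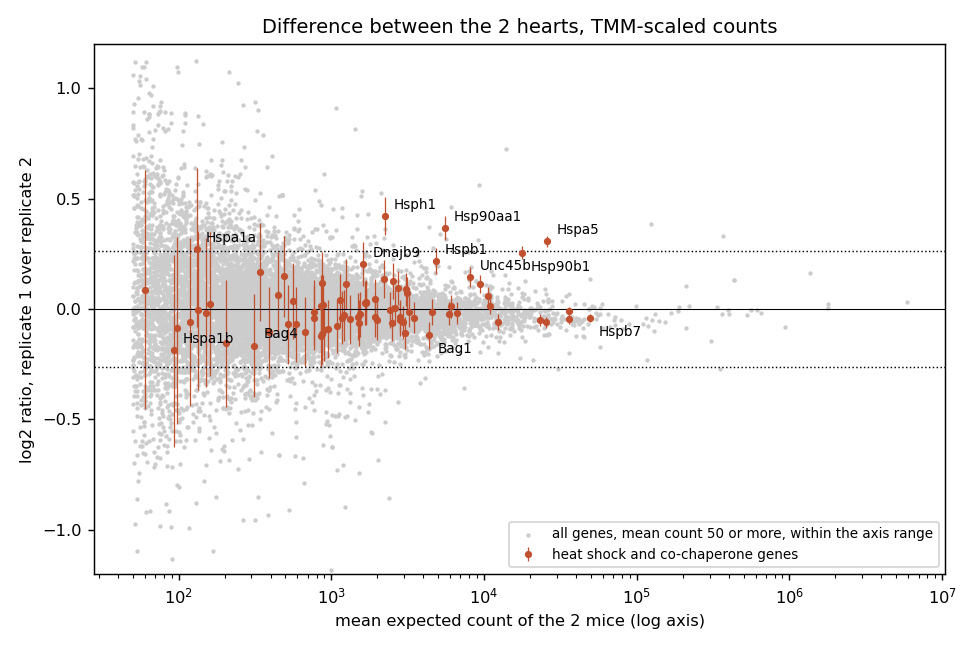
Log2 ratio of scaled counts, replicate 1 over replicate 2, against the mean expected count (log axis), for all genes in grey and the 77 chaperone genes in red with 95% counting intervals. Dotted lines mark 1.2-fold, and the 4 genes above the upper line are Hsph1, Hsp90aa1, Hspa5 and Hspa1a.

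The difference at Hspa5 and Hsp90b1 was not shared by all ER chaperones. Of the 10 ER genes, 5 were higher in replicate 1 and 5 in replicate 2, with a median log2 ratio of 0.0033 and a range of -0.10 to 0.31. Dnajc3, the third gene with an ER stress element, had a log2 ratio of 0.14 (0.05 to 0.22). Of all genes, 11.3% were 1.2-fold apart and 2.08% were 1.5-fold apart, as given above. Of the 42 related genes, 2 were 1.2-fold apart and none 1.5-fold. They were Sdf2l1, which acts with ERdj3 and BiP, with a log2 ratio of 0.53 (0.30 to 0.75), and Hsf4 with 0.37 (-0.16 to 0.91). Hyou1, the ER form of HSP110, had 0.22 (0.15 to 0.29). Other ER genes of the related list lay lower: Sil1 had 0.05 (-0.16 to 0.26) and Sec63 had -0.08 (-0.18 to 0.01). The mitochondrial genes lay closer together, with a median log2 ratio of -0.03 and a range of -0.11 to 0.01. The 6 detected CCT genes ran from -0.11 to 0.01.

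Markers of blood moved with replicate 1. The 4 red cell markers (Hbb-bs, Hba-a1, Alas2 and Slc4a1) summed to 13712 TPM in replicate 1 and 4292 TPM in replicate 2, with log2 ratios of 1.64 to 2.31, and 3 of the 4 were detected in both hearts. The 4 platelet markers summed to 40.8 TPM in replicate 1 and 19.6 TPM in replicate 2, with 3 of the 4 detected in both. The 4 smooth muscle and pericyte markers summed to 171 TPM in replicate 1 and 209 TPM in replicate 2, with log2 ratios of -0.57 to -0.05. The 4 adipocyte markers summed to 3.44 TPM in replicate 1 and 7.87 TPM in replicate 2. Median log2 ratios were -0.07 for the heart muscle markers, 0.07 for endothelium, 0.03 for fibroblasts and -0.19 for macrophages. The median was 0.42 for the 3 Schwann cell markers, which were low in both hearts. The part of these cells in the ratios of Hsph1, Hsp90aa1, Hspa5 and Hsp90b1 was not tested. Spike-in RNA gave another scale: scaled to it, the log2 ratio of every gene, chaperone or not, was lower by about 0.17. The log2 ratio was then below 0 for 70 of the 77 genes, against 44 with TMM scaling. No chaperone gene was then 1.2-fold higher in replicate 1, and 11 were 1.2-fold higher in replicate 2. Shares over all genes were not computed on that scale, so these counts do not set the chaperones apart from other genes. On that scale Hsph1, Hsp90aa1 and Hspa5 still had positive log2 ratios, of 0.25, 0.19 and 0.13.

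Transcripts were compared between the first transcript table, made from an alignment like the gene table, and the second, made from the reads and an index. The same transcript was the most abundant in both for 55 of 69 genes that were detected and had at least 2 transcripts, and for 42 of 44 in which it exceeded the next by 1.5-fold in both tables. The 14 genes in which it differed were Cct8, Cryab, Dnaja2, Dnajb2, Dnajb4, Dnajc5, Dnajc11, Dnajc13, Dnajc19, Dnajc24, Hspa2, Hspb6, Hspb11 and Hsph1, so the isoforms of these genes are uncertain. In Hspb11 the first table itself gave different transcripts in the hearts: Hspb11-202 held 17.7% in replicate 1 and 85.3% in replicate 2, and differs from Hspb11-201 by 1 base in length (607 and 608 bases).

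A share of 18.0% ± 0.742 of the chaperone TPM lay on transcripts of other types than protein_coding in the first table, against 13.9% ± 0.128 for nuclear protein-coding genes. In the second table the shares were 19.4% ± 0.539 and 18.3% ± 0.214. Without Cryab, the other 87 chaperone genes had 10.7% ± 0.587 in the first table and 15.3% ± 0.457 in the second, both below the shares of nuclear protein-coding genes, so the direction rests on Cryab. Most of it in the chaperones, 13.0% ± 0.614 of their TPM, was typed as retained intron. In Cryab, the transcript Cryab-204, a retained-intron type of 585 bases, held 50.7% of the TPM in replicate 1 and 47.2% in replicate 2. The coding transcript Cryab-205 held 47.5% and 50.6%. The second table gave Cryab-204 30.5% in replicate 1 and 34.5% in replicate 2, and spread nearly all the rest over 4 coding transcripts.

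Dnajc15 was the gene in which other types prevailed in both tables. Dnajc15-203, typed processed_transcript and 419 bases long, held 65.5% of the TPM in replicate 1 and 64.0% in replicate 2. Dnajc15-201, typed as a target of nonsense-mediated decay, held 31.8% and 33.0%, and the coding Dnajc15-202, of 6193 bases, 2.69% and 3.04%. In the second table the coding transcript held 1.06% in replicate 1 and 1.15% in replicate 2. For Dnajc19 the tables disagreed: the first gave Dnajc19-205, a retained-intron type, 51.3% in replicate 1 and 51.9% in replicate 2, and the second listed it at 0 in both hearts and gave the coding Dnajc19-204 59.9% and 57.3%. Cct3-203, also a retained-intron type, held 40.9% in replicate 1 and 42.8% in replicate 2 by the first table, and 10.9% and 6.32% by the second. Dnaja2-202, of 507 bases, held 47.5% and 45.4% by the first table and 60.8% and 56.4% by the second. For Hspb6 the tables disagreed widely. Other types held 0.727% in replicate 1 and 0.451% in replicate 2 by the first table, and 50.8% and 53.6% by the second. In Hsph1, the retained-intron type Hsph1-208 held 30.5% of the TPM in replicate 1 and 15.5% in replicate 2.

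**Figure D4:**
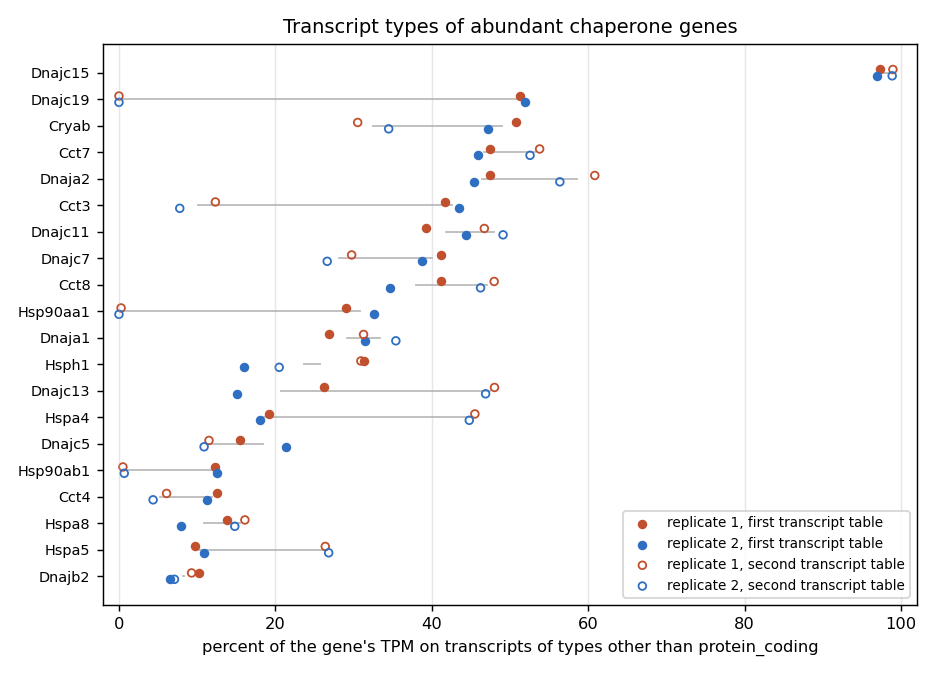
Percent of each gene's TPM on transcripts of types other than protein_coding, with replicate 1 drawn above replicate 2. The 20 chaperone genes of at least 10 TPM with the highest share in the first transcript table are shown. Filled points are the first transcript table and open points the second; Dnajc15 is above 90% in both, and Dnajc19 is above 50% in the first table and at 0 in the second.

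The levels themselves were close between the quantifications. Of the 54 genes at 10 TPM or more, 49 were higher in the second table, in which the median of 4815 nuclear protein-coding genes was itself 1.16 times that of the gene table. After removal of that shift, 51 of 54 were within 1.5-fold. The 5 farthest were Dnajc15, Dnajc11, Dnajb2, Dnajc8 and Dnajb9, all higher in the second table. Dnajc15 was at 204 TPM in replicate 1 and 205 TPM in replicate 2 there, or 1.95 times its level in the gene table. Cct3, at 50.1 and 50.2 TPM in replicates 1 and 2 of the second table, was lower there.

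**Figure D5:**
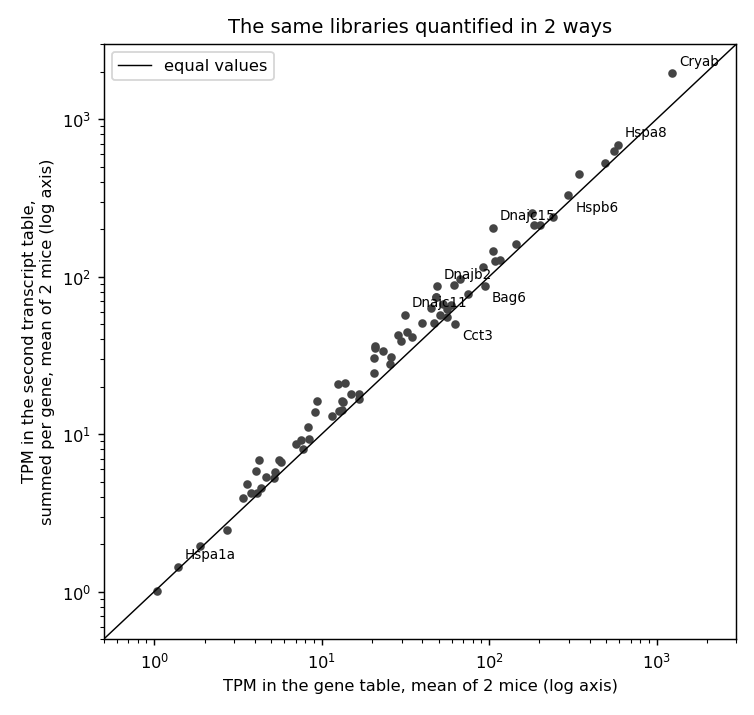
Mean TPM of each chaperone gene in the second transcript table against the gene table (both log axes), with a line at equal values. Most genes lie a little above the line, Dnajc15 is the farthest above it among genes of at least 10 TPM, and Cct3 lies below it.

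Some levels rest on sequence shared with other genes. In the most abundant transcript, at least 50% of the 31-base words occurred in another annotated gene for 8 of the 88 genes, and under 5% did for 63. The shares were 90.9% for Dnaja1, 77.2% for Hspa8, 70.8% for Hsp90aa1, 61.7% for Hspb1, 55.8% for Hspd1 and 54.2% for Dnajc19, in each case mainly with a processed pseudogene. For Hspa1b (68.0%) and Hspa1a (65.4%) the other gene was mainly the opposite member of the pair. Hspe1 followed with 48.1%. Of those 6 pseudogenes, Gm15459, the one sharing with Hspa8, was itself at 176 TPM in replicate 1 and 183 TPM in replicate 2. Hsp25-ps1, the one sharing with Hspb1, was at 26.48 and 21.46 TPM, and Gm12346, the one sharing with Hsp90aa1, at 2.02 and 1.13 TPM. The others, Gm7816 (Dnaja1), Hspd1-ps3 (Hspd1) and Dnajc19-ps (Dnajc19), had at most 68.27 expected counts in either heart. The levels of Hspa8 and Hspb1 thus depend on how reads were divided with these pseudogenes. Expected counts were whole numbers (within 0.005) in both hearts for 69 of the 88 genes. The other 19, Hspa1a, Hspa1b, Hsp90aa1, Hspa8 and Hspb1 among them, had fractional expected counts, which arise where reads match more than 1 gene, and their levels are uncertain to that extent.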

How the data were processed

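Total RNA-seq of 2 hearts was used as deposited. Per the file headers, the gene table of the authors gives each gene an expected count, TPM, FPKM and a posterior mean TPM, their first transcript table expected counts, TPM and the percent of the gene's TPM, and their second transcript table estimated counts and TPM. The build (mm10) and annotation (GENCODE M21) are given in the deposited file descriptions; for the aligner, the quantifiers and the use of strand, names and settings do not appear in the sources at hand. The annotation gave symbols, types and coordinates, and spike-ins were left out of totals.

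Levels are TPM as mean ± SD (n = 2), detection is 1 TPM in both hearts, and ratios use expected counts scaled by TMM factors (edgeR 4.0.16, R 4.3.3), a prior count of 0.5 and a mean count of at least 50. Intervals (95% Clopper-Pearson) and the floor of 3 counts express counting error alone, as reads without molecular identifiers are not independent molecules. No test was run: 2 samples of 1 group allow no contrast, and a paired exact test would not go below p = 0.5. On simulated counts, the ratio recovered the simulated folds before use. Promoter windows came from RefSeq (GRCm38.p6). The genes named were all members of the HSP, CCT, BAG and UNC45 families, J-domain genes by level or compartment, the 5 most extreme ratios each way, and those whose transcripts or levels differed between tables. The rule reads only symbols and types, but the members and lists were chosen with earlier results of these data known. Alternatives covered scaling (including DESeq2 1.42.0 size factors), filters, units, the second transcript table and each heart alone.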

Additional observations from a re-analysis of the deposited data

How the results depend on the processing

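Of 180 alternative values computed for 33 results, 133 kept to within the spread or interval of the reported value or, for counts of genes, within 1.5 times, 44 moved beyond that and 3 changed sign; the cause of the moves was not tested. Among the counts within 1.5 times, 64 chaperone genes reached 5 TPM in both hearts, 39 genes at 10 TPM or more had the same most abundant transcript in both tables, and 6 genes were 1.2-fold apart in the second table. The median level was 14.3 as FPKM, 22.9 TPM in the second transcript table and 46.3 after rescaling TPM to nuclear protein-coding genes. The share of nuclear protein-coding TPM was 1.643% with posterior mean TPM and 1.634% in the second table, the share of the 5 highest genes 49.4% and 51.5%. In the second table the small heat shock proteins held 41.7%, other transcript types 19.4% (10.7% without Cryab in the first table), and the CCT ring spanned 2.04-fold. There the log2 ratios of levels were 8.14 for Hspa8 over Hspa1a plus Hspa1b, 2.19 for Hsp90ab1 over Hsp90aa1, 5.09 for Cryab over Hspb2 and -0.73 for Hspe1 over Hspd1. Without length correction, from expected counts, they were 7.33, 2.70, 4.55 and -2.87, and 4.08 for Unc45b over Unc45a, which was 3.45 with posterior mean TPM. Between the hearts, 3 genes were 2-fold apart without a count filter, and 4 were 1.5-fold apart (1 at a mean count of at least 10). All of these are among the genes with mean counts of 17.5 or fewer. Shares over all genes were not computed with these filters. By TPM, 1 gene was 1.5-fold and 2 were 1.2-fold apart. At 1.2-fold, chosen after seeing the data like the ratio of TPM, there were 2 genes under total counts and 11 under spike-in scaling. Under spike-in scaling the median log2 ratio was -0.187. These scalings shift the ratios of all genes together, and shares over all genes were not computed on them. Of the 15 genes whose ratios were recomputed singly, spike-in scaling turned Hspa1l (-0.0054), Bag5 (-0.024) and Unc45b (-0.028) negative; over all 77 genes, 70 were then below 0, against 44.

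With each heart alone, the median level ran from 17.5 to 18.7 TPM, the share of nuclear protein-coding TPM from 1.661% to 1.662%, the share of the 5 highest genes from 49.5% to 49.8%, that of small heat shock proteins from 38.4% to 39.4%, and detected genes from 76 to 77. No paired analysis was possible because the series holds 1 group only. Genes of few counts, such as Hspa1a and Hspa1b, had counting intervals that spanned 0 at this depth.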

Other observations

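The promoter elements also allowed the ratio between the hearts to be read over all genes that carry them, a description made after the ratios of Hspa5 and Hsp90b1 were known. Of 37 genes with an ER stress element, 14 had a mean expected count of at least 50. Of these, 9 were higher in replicate 1 and 5 in replicate 2, with a median log2 ratio of 0.056, against -0.0063 over 9284 genes with a window. Log2 ratios were 0.31 for Alg12, an enzyme of N-glycan assembly, 0.29 for Creld2, an ER protein of folding, 0.17 for Syvn1, a ligase of ER-associated degradation, and 0.09 for the disulfide isomerase Pdia6. Canx and Calr, the lectin chaperones calnexin and calreticulin, were level, at -9.7e-06 and 0.02. The lowest was Adcy3 at -0.15. At least 1.2-fold higher in replicate 1 were 3 of the 14 (21.4%), against 5.43% of genes with a window, and none was so in replicate 2. Hspa5, Hsp90b1 and Dnajc3, which prompted the look, are among the 14. Without them, 6 of 11 genes were higher in replicate 1 and 5 in replicate 2, with a median log2 ratio of 0.021, and 2 (18.2%) were at least 1.2-fold higher in replicate 1.

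Genes with a 3-unit heat shock element numbered 57 at that count, 31 higher in replicate 1 and 26 in replicate 2, with a median log2 ratio of 0.014. The highest 3 were Hsph1 (0.42), Slc35c1 (0.34) and Chordc1 (0.33), an HSP90-binding protein. The lowest 2 were Smo (-0.31) and Myoc (-0.29). At least 1.2-fold apart were 4 genes higher in replicate 1 (7.02%, against 5.43% of genes with a window) and 2 in replicate 2. Hsph1, whose ratio was already known, is among the 4. Without the chaperone genes, 53 genes remained, of which 3 (5.66%) were so in replicate 1 and 2 in replicate 2. Their median log2 ratio was 0.013, and the share was close to that of all genes with a window. Hspd1 (0.014) and Hspe1 (-0.034), which share an element in both windows, were level between the hearts.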
